A study of Mus musculus with 2 samples.

Results

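The glutathione S-transferases (GST), UDP-glucuronosyltransferases (UGT) and cytosolic sulfotransferases (SULT), the conjugating enzymes of phase II metabolism, were examined in the liver transcriptome of HFD-fed mice. Members were chosen by gene symbol, as the genes of the *Gsta*, *Gstk*, *Gstm*, *Gsto*, *Gstp*, *Gstt* and *Gstz* classes, of the *Ugt1a*, *Ugt2a*, *Ugt2b* and *Ugt3a* subfamilies, and of the *Sult* family. The rule gave 65 of the 45777 genes in the table, with 142 of its 129299 transcripts, and the rule itself uses no measured value, although it was set with earlier results of these data known. They comprised 23 GST, 20 UGT and 22 SULT genes. Both groups were C57BL/6 N mice that started a high-fat diet at 7 weeks of age and stayed on it for 18 weeks. At week 13, the control group received AAV-GFP and the other group AAV-*Wee1-AS*, which carries the long noncoding RNA *Wee1-AS*, by retro-orbital injection. The vector was AAV9 with the CMV promoter, which is not specific to hepatocytes, and *Wee1-AS* itself was not analysed here. The comparison asks which transcripts differ in fatty liver when *Wee1-AS* is supplied. The library of each group was the only one analysed, whereas the design text speaks of 4 liver samples, and no source used here says whether mice were pooled. Every difference below therefore has no replicate check, and no p-value is given.

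Phase II enzymes attach a polar group to drugs, hormones, bile acids, bilirubin and products of lipid oxidation, which makes them soluble for export into bile or urine. GST enzymes use glutathione, UGT enzymes of the endoplasmic reticulum use sugars bound to UDP, mostly glucuronic acid, and SULT enzymes use the sulfate donor PAPS. The liver is their main site, and many of the genes lie side by side as copies of each other. NRF2, AHR and the nuclear receptors CAR, PXR and PPARα are known to regulate many of them, and several differ between male and female mouse livers.

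The deposited counts summed to 55466182 with AAV-GFP and 48079335 with AAV-*Wee1-AS*. They are estimated counts, shared out by the authors' program among overlapping transcripts, and were summed here per gene symbol. Ratios are AAV-*Wee1-AS* over AAV-GFP on TMM-scaled counts, each with a 95% interval (exact Clopper-Pearson) that covers counting error only. TPM values, which are scaled by transcript length, are used wherever levels of different genes are set side by side. Over all genes, the log2 ratio moved with the GC content of the transcript. The 10% of genes with the lowest GC content (31.0% to 41.5%) had a median log2 ratio of 1.42, the 10% with the highest had -0.69, and Spearman's coefficient across 15109 genes, which are not independent replicates, was -0.67. Log2 ratios of members and medians of lists are therefore also given with the GC and length trends removed, while summed TPM and summed counts of copies are not adjusted, and the part of these trends in any single gene was not tested.

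With AAV-*Wee1-AS*, 20 of 22 measured GST genes were lower and all 8 measured SULT genes were higher than with AAV-GFP, whereas with the GC and length trends removed 16 of the 22 GST genes were below 0 and 6 of the 8 SULT genes above it. The UGT genes divided by locus, with 6 of 8 *Ugt1a* genes lower and all 7 *Ugt2b* genes higher on scaled counts, although 6 of the 7 *Ugt2b* genes lay below 0 with the GC and length trends removed. Of the 65 members, 48 reached at least 10 counts in at least 1 library, namely 22 GST, 18 UGT and 8 SULT genes. Among these 48, 8 had a ratio above 2, which is 16.7% of them against 22.2% of all 15857 genes past the same filter, so the share above was not larger than the background. With 10 counts required in both libraries, which left out *Gsto2*, 7 of 47 members were above 2, beside 3008 of 14412 genes. A ratio below 0.5 was seen for 10 members, or 20.8%, against 8.71% of all genes. The log2 ratio was below 0 for 26 of the 48 members, against 50.5% of all genes. The counting interval lay wholly above 2 for *Sult1b1*, *Sult1d1*, *Sult2a8*, *Ugt2a3* and *Ugt2b34*, and wholly below 0.5 for *Gsta1*, *Gsta2*, *Gsta4*, *Gstm1*, *Gstm2-ps1*, *Gstm3*, *Gstm4* and *Ugt1a9*. In whole liver, fewer cells of a type and less RNA per cell cannot be told apart.

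**Figure D1:**
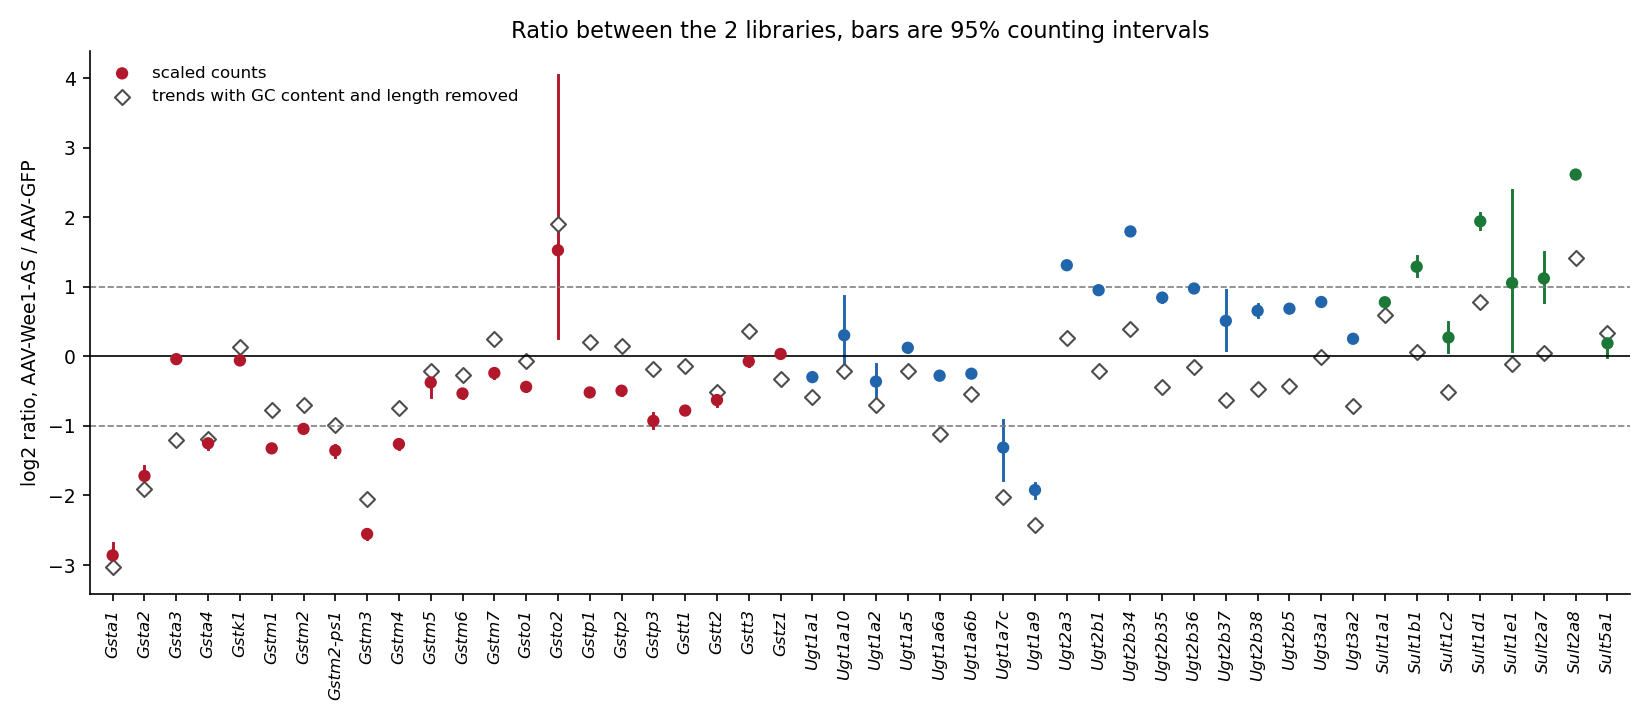
Log2 ratio of the AAV-*Wee1-AS* library over the AAV-GFP library (y axis) for the 48 enzyme genes past the count filter (x axis), with GST in red, UGT in blue and SULT in green. Filled points are scaled counts with 95% counting intervals, open diamonds are values with the GC and length trends removed, and dashed lines mark ratios of 2 and 0.5. *Sult2a8* stood highest at 2.61 and *Gsta1* lowest at -2.86, and the *Ugt2b* genes lay above 0 as filled points but, except for *Ugt2b34*, below 0 as diamonds.

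The median log2 ratio was -0.58 over the 22 GST genes, 0.41 over the 18 UGT genes and 1.09 over the 8 SULT genes, beside -0.02 over all genes. After removal of the GC and length trends, the GST median was -0.30, the UGT median turned to -0.46 and the SULT median was 0.20. Then 2 of the 48 members (*Gsto2* and *Sult2a8*) were above 2, against 1113 of the 15109 genes with a GC value (7.37%). *Gsto2* (4 and 13 counts) passed the count filter only through the AAV-*Wee1-AS* library, where it was higher. Below 0.5 were 8 of the 48 members, against 1294 of the 15109 genes (8.56%). They were *Gsta1*, *Gsta2*, *Gsta3*, *Gsta4*, *Gstm3*, *Ugt1a6a*, *Ugt1a7c* and *Ugt1a9*. Of the 10 genes below 0.5 on scaled counts, 6 were also below 0.5 in that setting.

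The families differed widely in level. GST transcripts summed to 11488 TPM with AAV-GFP and 7093 TPM with AAV-*Wee1-AS*, which was 1.15% and 0.709% of all TPM. UGT transcripts summed to 1833 and 2467 TPM, and SULT transcripts to 251.5 and 654 TPM. Most of the difference in GST transcripts was in the mu class, which summed to 5044 and 2015 TPM. In the UGT family, the *Ugt2b* sum went from 694 to 1301 TPM while the *Ugt1a* sum went from 764 to 606 TPM. In the SULT family, the *Sult2* sum went from 51.1 to 296 TPM and the *Sult1* sum from 189 to 344 TPM.

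**Figure D2:**
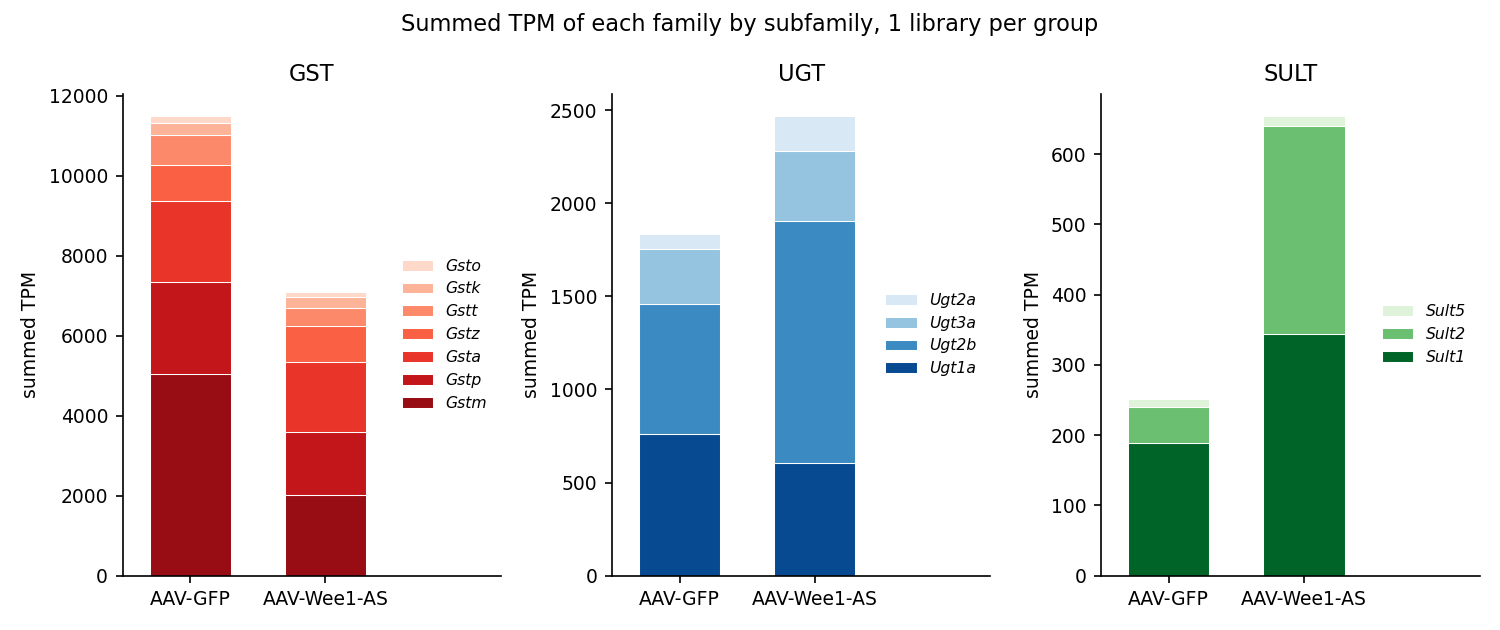
Summed TPM (y axis, from 0) of the GST, UGT and SULT genes in the AAV-GFP and AAV-*Wee1-AS* libraries (x axis, 1 library each), with the bars divided by subfamily. The GST bar is lower in the AAV-*Wee1-AS* library, mainly in *Gstm* (5044 against 2015 TPM), and the UGT and SULT bars are higher, mainly in *Ugt2b* (694 against 1301 TPM) and *Sult2* (51.1 against 296 TPM). These TPM are not adjusted for GC content, and the UGT median log2 ratio turned below 0 once the GC and length trends were removed.

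Alpha-class GST enzymes act on lipid hydroperoxides and on reactive aldehydes of lipid oxidation. *Gsta1* (gene 14857, chr9:78230669-78242683) and *Gsta2* (gene 14858, chr9:78331018-78347192) are near-identical neighbours, and their coding sequences shared 97.5% of aligned bases. The stretch of 120 coding bases in exon 7, read from GENCODE transcripts on GRCm38 (mm10), is shown because it holds 6 of their 17 differences (in capitals), the bases by which reads of both genes can be told apart.
*Gsta1*, chr9:78242454-78242573, plus strand: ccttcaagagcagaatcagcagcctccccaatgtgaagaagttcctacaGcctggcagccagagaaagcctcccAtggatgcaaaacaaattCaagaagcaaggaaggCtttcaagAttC
*Gsta2*, chr9:78331129-78331248, minus strand: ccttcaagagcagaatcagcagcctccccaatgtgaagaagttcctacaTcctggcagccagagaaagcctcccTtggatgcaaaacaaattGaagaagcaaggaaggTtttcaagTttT

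*Gsta1* had 2185 counts with AAV-GFP and 249 with AAV-*Wee1-AS*. This was 7.26-fold lower (log2 ratio -2.86, interval -3.06 to -2.68), the lowest ratio of the 48 members, and the value was -3.03 with the GC and length trends removed. *Gsta2* had 1895 and 478 counts, a log2 ratio of -1.72 (interval -1.87 to -1.58), and -1.91 with both trends removed. Since shared reads may be split between these copies, their split is uncertain, and their summed counts of 4080 and 727 gave -2.22 (interval -2.34 to -2.11). *Gsta4*, which detoxifies 4-hydroxynonenal, was also lower, with 4198 and 1469 counts (log2 ratio -1.25, and -1.19 with both trends removed). These 3 genes lie together on chr9:78191966-78347192, and all 3 had ratios below 0.5. *Gsta3*, which conjugates the aflatoxin epoxide in mice, lies apart on chr1:21240565-21265575. It had 81004 and 65618 counts, a log2 ratio of -0.04 (interval -0.06 to -0.03), and with 1749 and 1665 TPM it made up most of the alpha-class TPM. *Gsta3* had a low GC content of 40.4%, and with the GC and length trends removed its value was -1.20.

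Mu-class genes, whose enzymes conjugate epoxides and other electrophiles, were all below 0. *Gstm1* (gene 14862, chr3:108012250-108017979) was the most abundant GST of the AAV-GFP library at 3861 TPM, and had 1513 TPM in the AAV-*Wee1-AS* library. Its counts of 164955 and 54921 gave a log2 ratio of -1.32 (interval -1.34 to -1.31), and its share of all GST TPM was 33.6% and 21.3%. *Gstm3* (gene 14864, chr3:107963696-107969174) had the lowest ratio of the class, with 13001 and 1842 counts, 5.87-fold lower (log2 ratio -2.55, interval -2.63 to -2.49). The ratio was -2.05 with the GC and length trends removed, whereas that of *Gstm1* was -0.78 and no longer past 2-fold. *Gstm2* (12053 and 4870 counts, -1.04), *Gstm4* (7479 and 2598, -1.26) and the pseudogene *Gstm2-ps1* on chromosome 5 (4596 and 1496, -1.35) were also below 0.5 on scaled counts, and with both trends removed they had -0.69, -0.74 and -0.99. *Gstm2-ps1* had no coding sequence to align, so its identity to other mu-class genes was not measured. The split of any reads it shares with them is uncertain. *Gstm5*, *Gstm6* and *Gstm7* lay nearer to 0, at -0.38, -0.53 and -0.24, and had -0.21, -0.26 and 0.25 with both trends removed, where *Gstm7* changed sign. The 7 genes of the cluster on chr3:107895854-108045179 thus ranged from -2.55 to -0.24, and the intervals of *Gstm1* and *Gstm3*, whose coding sequences are 89.5% identical, did not overlap.

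In the other GST classes, no gene had a ratio below 0.5. *Gstp1*, the pi-class enzyme, had 47507 and 27611 counts (log2 ratio -0.52), and its copy *Gstp2* had 6985 and 4131 (-0.49). They share 98.1% of coding bases, so their split is uncertain, and their sum gave -0.52. Both were above 0 with the GC and length trends removed, at 0.21 and 0.15. *Gstp3* was lower, with 2315 and 1013 counts (-0.93), and had -0.18 with both trends removed. The theta-class genes *Gstt1* and *Gstt2* had log2 ratios of -0.78 and -0.63, and *Gstt3* had -0.07. With both trends removed they had -0.14, -0.52 and 0.37, so that *Gstt3* changed sign. *Gstk1*, of the mitochondrial and peroxisomal kappa class, had 8941 and 7148 counts (-0.06, turning to 0.14 with both trends removed). *Gstz1*, the maleylacetoacetate isomerase of tyrosine breakdown, had 47540 and 40549 counts and a log2 ratio of 0.03, whose sign depended on the scaling (-0.02 with library totals, -0.17 with the upper quartile, -0.46 with the GC trend removed and -0.33 with both trends removed). *Gsto1*, which reduces dehydroascorbate, had 6202 and 3811 counts (-0.44, and -0.07 with both trends removed). *Gsto2* was the only GST with a ratio above 2, but with 4 and 13 counts its interval ran from 0.27 to 4.04. Its ratio was also above 2 with both trends removed. *Gsto2* passed the count filter only through the AAV-*Wee1-AS* library, where it was higher, so no conclusion is drawn from either value. *Gstt4* had 0 counts in both libraries, which allows 3 counts, or 0.0541 CPM in the AAV-GFP library and 0.0624 CPM in the AAV-*Wee1-AS* library.

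**Figure D3:**
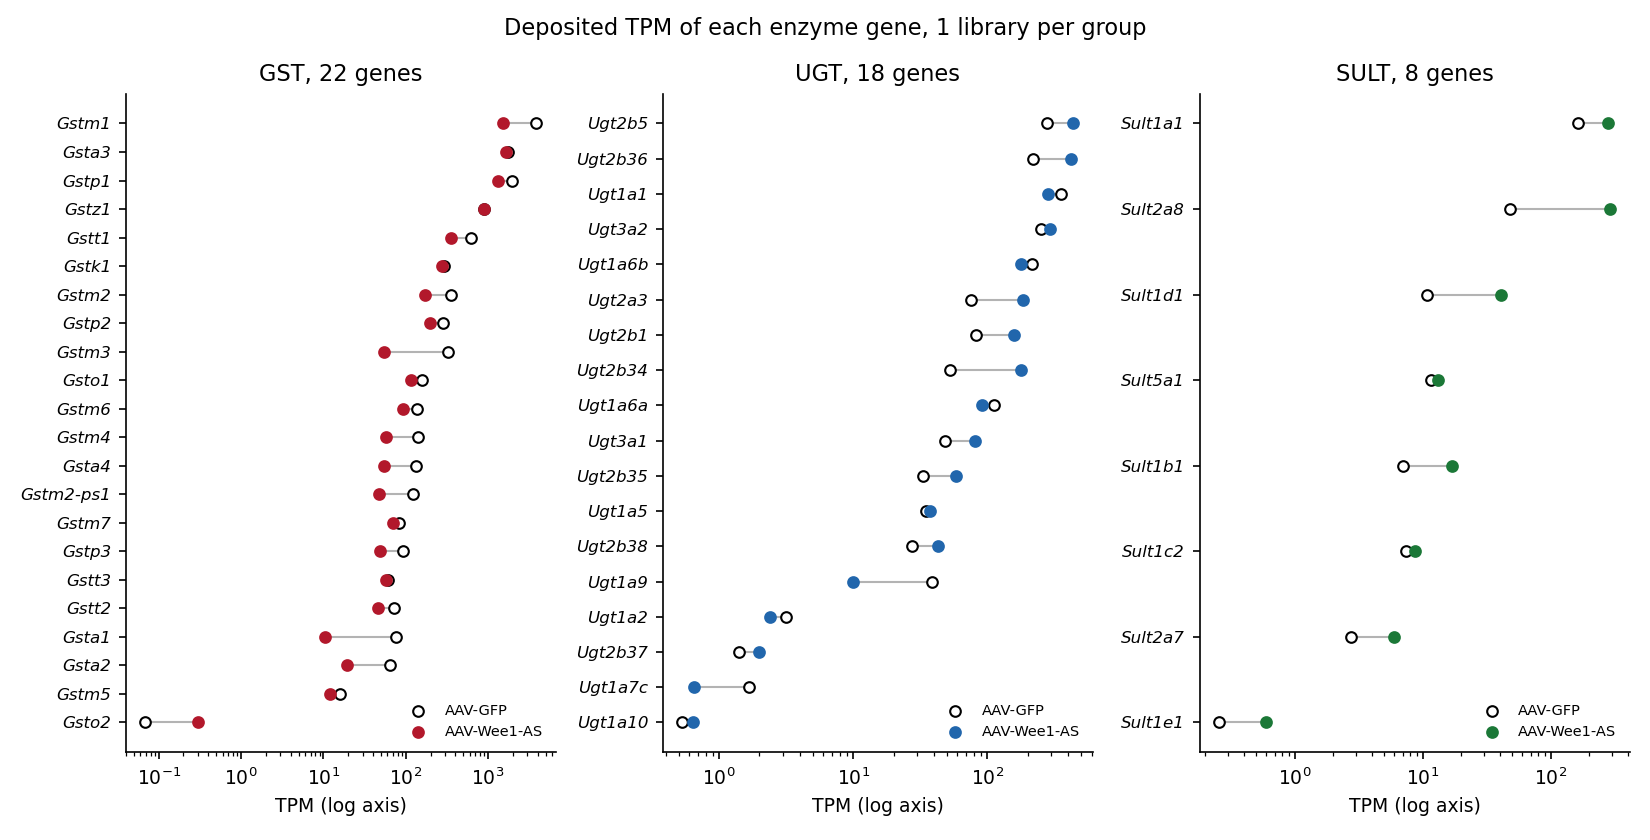
Deposited TPM (x axis, log scale) of each gene past the count filter in the AAV-GFP library (open circles) and the AAV-*Wee1-AS* library (filled circles), 1 library per group, with genes ordered by mean TPM in each family. *Gstm1*, *Gsta3*, *Gstp1* and *Gstz1* led the GST family, *Ugt2b5* and *Ugt2b36* the UGT family, and *Sult1a1* and *Sult2a8* the SULT family. The longest gaps were those of *Gsta1* (77.0 and 10.4 TPM), *Gstm3* (328 and 54.9 TPM) and *Sult2a8* (48.2 and 290.1 TPM).

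The *Ugt1a* genes form a single locus on chr1:88055411-88220002, in which each gene has a first coding exon of its own and all splice to the same last exons. The last 738 coding bases, 45.9% to 46.5% of each coding sequence, were identical in all 8 genes, so only the sequence before them tells the genes apart. The junction is shown for 4 genes, read from GENCODE transcripts on GRCm38 (mm10), with 45 bases of the gene's own exon in lower case and the first 45 shared bases, chr1:88215044-88215088 on the plus strand, in capitals.
*Ugt1a1*, own bases chr1:88212827-88212871: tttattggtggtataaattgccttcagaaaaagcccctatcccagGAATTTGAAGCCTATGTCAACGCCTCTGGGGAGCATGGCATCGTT
*Ugt1a6a*, own bases chr1:88139287-88139331: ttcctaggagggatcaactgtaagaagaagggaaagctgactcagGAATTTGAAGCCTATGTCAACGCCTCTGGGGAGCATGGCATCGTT
*Ugt1a7c*, own bases chr1:88095934-88095978: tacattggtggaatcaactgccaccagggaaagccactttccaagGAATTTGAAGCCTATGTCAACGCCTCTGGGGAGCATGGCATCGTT
*Ugt1a9*, own bases chr1:88071634-88071678: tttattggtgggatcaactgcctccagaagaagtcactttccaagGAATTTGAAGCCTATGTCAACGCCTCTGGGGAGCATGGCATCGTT

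Over the whole locus, the counts were 74769 and 50072, a log2 ratio of -0.31 (interval -0.33 to -0.30). *Ugt1a1*, the enzyme that glucuronidates bilirubin, had 37781 and 25584 counts (355 and 284 TPM) and a log2 ratio of -0.30 (interval -0.32 to -0.28). *Ugt1a6a* and *Ugt1a6b*, which act on planar phenols and share 98.4% of coding bases, had -0.28 and -0.25. *Ugt1a9* (gene 394434, chr1:88070779-88220002) stood apart from them, with 4072 and 894 counts, 3.79-fold lower (log2 ratio -1.92, interval -2.03 to -1.82). Its interval did not overlap that of *Ugt1a1*, and its value with the GC and length trends removed was -2.42. *Ugt1a7c*, with 182 and 60 counts, had a log2 ratio of -1.31 and an interval from -1.78 to -0.91. *Ugt1a2* had 331 and 214 counts (-0.36), *Ugt1a5* had 3724 and 3378 (0.12) and *Ugt1a10* had 57 and 59 (0.30), the last with an interval from -0.24 to 0.86 that held 0. Once both trends were removed, all 8 genes of the locus lay below 0, with *Ugt1a1* at -0.58, *Ugt1a6a* at -1.12, *Ugt1a6b* at -0.54, *Ugt1a7c* at -2.03 and *Ugt1a2* at -0.70. *Ugt1a5* and *Ugt1a10* turned to -0.21 each. Because the estimated counts of these genes include shares of the common exons, the ratio of a first exon alone cannot be read from them.

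The *Ugt2* genes lie together on chr5:86889770-87490871 and act on steroids, bile acids and drugs among other substrates. All 8 that passed the count filter were above 0 on scaled counts, from 0.51 to 1.80. *Ugt2b34* (gene 100727, chr5:86889770-86906937) had the highest ratio, with 5272 and 15247 counts, 3.47-fold higher (log2 ratio 1.80, interval 1.75 to 1.84). *Ugt2a3* (gene 72094, chr5:87324972-87337195) had 5267 and 10880 counts (1.31, interval 1.26 to 1.36). *Ugt2b36* (13608 and 22289 counts, 0.98) and *Ugt2b1* (6946 and 11188 counts, 0.95) lay just under 2-fold, at ratios of 1.97 and 1.93. *Ugt2b35* had 3642 and 5448 counts (0.84). *Ugt2b5*, the most abundant UGT of the AAV-*Wee1-AS* library at 439 TPM, had 278 TPM in the AAV-GFP library and a log2 ratio of 0.69. Its copies *Ugt2b37* and *Ugt2b38*, each counted with uncertain split, had 0.51 and 0.65, and the 3 together had 0.68. The transcripts of this cluster were poor in GC (38.8% to 41.6%). With the GC and length trends removed, *Ugt2b34* and *Ugt2a3* stayed above 0, at 0.39 and 0.26, and the other 6 genes lay between -0.62 and -0.16. *Ugt2a1* and *Ugt2a2* had 0 counts in both libraries.

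The *Ugt3a* enzymes use sugars other than glucuronic acid. *Ugt3a1* had 3481 and 4985 counts (log2 ratio 0.78) and *Ugt3a2* had 18219 and 18078 (0.25). They share 93.3% of coding bases on chr15:9279822-9370955, and their sum gave 0.35. After removal of both trends the values were -0.01 and -0.72.

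Of the 22 SULT genes, 8 passed the count filter, 11 had 0 counts in both libraries and the other 3 stayed under 10 counts. *Sult2a8* (gene 76971, chr7:14410686-14446780), a liver sulfotransferase of bile acids, had the highest ratio of the 48 members. It had 3423 and 17454 counts, 6.12-fold higher (log2 ratio 2.61, interval 2.56 to 2.67), with 48.2 and 290.1 TPM. Its share of all SULT TPM was 19.2% and 44.4%, and it took first place from *Sult1a1*, whose share was 64.9% and 42.4%. With the GC and length trends removed, its log2 ratio was 1.41, the only SULT value above 1 in that setting. The difference was present in each of its 3 most abundant transcripts, which had 2058 and 10425, 823 and 3903, and 338 and 2773 counts. It was smaller in the others, with 105 and 116, and 99 and 237 counts. Because estimated counts are shared out among these overlapping transcripts, they are not separate measurements.

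*Sult1a1*, the main phenol sulfotransferase, had 7002 and 10003 counts (163 and 277 TPM) and a log2 ratio of 0.78 (interval 0.73 to 0.82), which was 0.60 with the GC and length trends removed. On chr5:87513339-87591611, *Sult1d1*, *Sult1b1* and *Sult1e1* lie side by side, and all 3 had ratios above 2. *Sult1d1*, which sulfates catecholamines, had 851 and 2727 counts (log2 ratio 1.94, interval 1.83 to 2.06) and the lowest GC content of the 48 members, 32.9%. *Sult1b1*, which acts on thyroid hormones, had 593 and 1209 counts (1.29, interval 1.15 to 1.44). *Sult1e1*, the estrogen sulfotransferase, had only 11 and 21 counts, and its interval ran from 0.08 to 2.40. With both trends removed, these 3 genes had 0.78, 0.07 and -0.11. *Sult2a7* had 101 and 185 counts (1.12, with an interval from 0.78 upwards), and 0.05 with both trends removed. *Sult1c2* (355 and 357 counts, 0.27) and *Sult5a1* (453 and 430 counts, 0.19) lay nearest to 0, and the interval of *Sult5a1* held 0. Once both trends were removed, *Sult1c2* had -0.52 and *Sult5a1* had 0.33. The genes *Sult2a1*, *Sult2b1* and *Sult3a1* had 0 and 2, 4 and 0, and 4 and 4 counts. *Sult2a1* to *Sult2a6* together thus held only those 2 counts, and *Sult2a1* and *Sult3a1*, known for high levels in female mouse liver, were near 0 in both libraries.

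Close to the limits, *Sult1e1* and *Sult2a7* were just above 2 with ratios of 2.08 and 2.17, while *Ugt2b36* and *Ugt2b1* were just under it. *Gstm2* and *Gsta4* were just below 0.5 with ratios of 0.485 and 0.420, while *Gstp3* and *Gstt1* were just over it with 0.526 and 0.583.

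**Figure D4:**
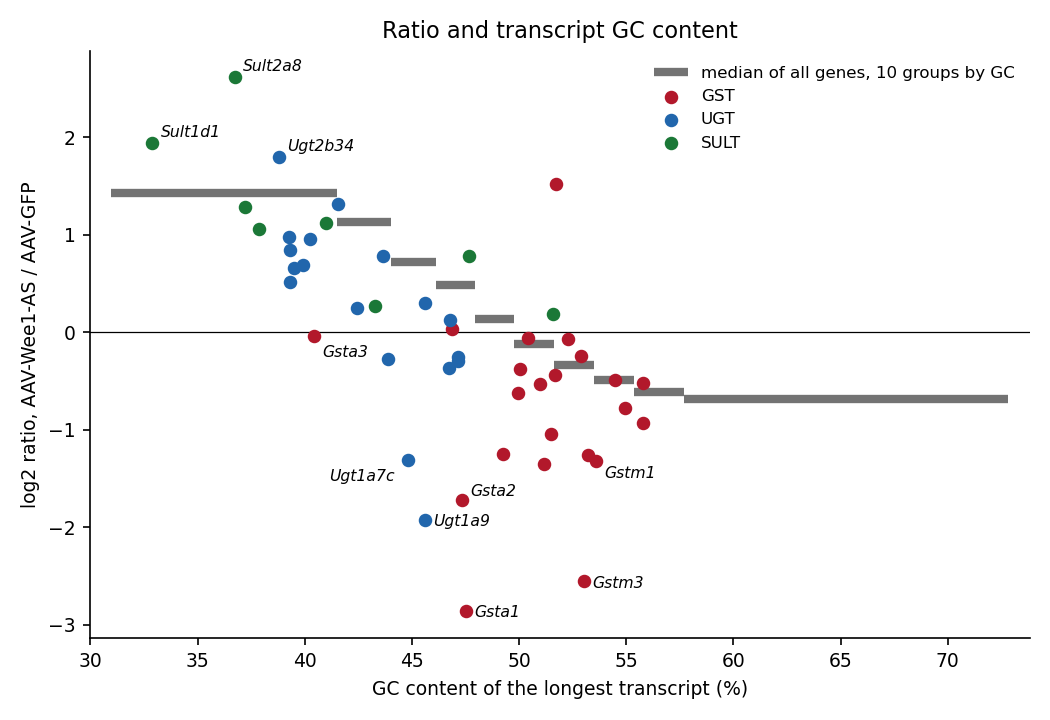
Log2 ratio of the AAV-*Wee1-AS* library over the AAV-GFP library (y axis) against the GC content of the longest transcript in percent (x axis) for the 48 enzyme genes, with grey bars for the median of all genes in 10 groups of GC content. The bars descend from 1.42 to -0.69. *Gsta1*, *Gsta2*, *Gstm3*, *Ugt1a9* and *Ugt1a7c* lie well below the bar of their GC group, *Sult2a8* lies above it, and most *Ugt2b* genes lie below it.

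Promoter windows, from 250 bases before to 50 bases after the start, were available in the RefSeq table of GRCm38.p6 for 55 of the 65 members. They were searched on both strands for TGACNNNGC (the core of the antioxidant response element, bound by NRF2), GCGTG (the core bound by AHR with ARNT) and AGGTCA (the hexamer that many nuclear receptors bind). The first was found for 3 members (*Gsta3*, *Gstm5* and *Gstm7*), the second for 10 and the third for 12. The 55 members had 66 windows, of which 4.55%, 18.2% and 18.2% held the respective motif, against 12.4%, 32.4% and 16.3% of all 32851 windows. A match describes letters and not a binding site, and the windows hold only the sequence next to the start. The windows of the genes with the lowest ratios in the GST and UGT families, of *Gstm3* and of *Sult2a8* follow, with motif matches in capitals.
*Gsta1*, chr9:78230419-78230718, plus strand: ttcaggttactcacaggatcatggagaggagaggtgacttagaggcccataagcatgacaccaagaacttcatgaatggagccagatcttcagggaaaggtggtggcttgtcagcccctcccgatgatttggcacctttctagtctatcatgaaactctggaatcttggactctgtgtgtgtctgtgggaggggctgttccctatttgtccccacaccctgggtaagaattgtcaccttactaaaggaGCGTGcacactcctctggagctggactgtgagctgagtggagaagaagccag
*Gstm3*, chr3:107969125-107969424, minus strand: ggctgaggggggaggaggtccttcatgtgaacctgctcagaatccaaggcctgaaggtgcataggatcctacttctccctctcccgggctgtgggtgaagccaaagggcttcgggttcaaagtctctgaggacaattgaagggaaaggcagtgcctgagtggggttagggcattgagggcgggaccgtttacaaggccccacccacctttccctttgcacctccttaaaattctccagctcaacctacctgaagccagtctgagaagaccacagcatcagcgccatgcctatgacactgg
*Ugt1a9*, chr1:88070529-88070828, plus strand: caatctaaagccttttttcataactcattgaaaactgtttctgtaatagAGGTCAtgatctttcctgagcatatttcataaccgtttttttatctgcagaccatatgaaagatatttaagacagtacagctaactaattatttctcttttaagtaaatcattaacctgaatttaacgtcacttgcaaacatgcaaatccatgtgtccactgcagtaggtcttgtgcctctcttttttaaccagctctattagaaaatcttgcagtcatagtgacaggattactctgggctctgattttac
*Sult2a8*, chr7:14446538-14446837, minus strand: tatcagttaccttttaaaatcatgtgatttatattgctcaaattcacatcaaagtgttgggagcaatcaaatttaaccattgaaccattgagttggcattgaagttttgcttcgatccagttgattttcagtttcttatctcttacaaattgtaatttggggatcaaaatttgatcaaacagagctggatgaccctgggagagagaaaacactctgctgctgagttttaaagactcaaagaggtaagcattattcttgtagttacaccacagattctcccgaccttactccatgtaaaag

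*Gsta1* held GCGTG next to its start and *Ugt1a9* held AGGTCA far upstream of it. No motif was in the *Gstm3* window or in the printed *Sult2a8* window, which is 1 of 2 in the table. The start of that *Sult2a8* window lay 193 bases from the deposited 5' end of its most abundant transcript. For *Gsta1*, *Gstm3* and *Ugt1a9* this distance was 0. The AGGTCA match of *Sult2a8* was in its other window. Whether these motifs bear on the ratios was not tested.

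The genes that supply the cofactors, the other phase II enzymes and the transporters were examined as lists, whose counts past 2-fold stand against 22.2% of all genes above 2 and 8.71% below 0.5 on scaled counts, and against 7.37% and 8.56% with the GC and length trends removed. In cofactor supply (12 genes), the median log2 ratio was -0.01, with 1 gene above 2 and 1 below 0.5 (8.33% each). With the GC and length trends removed, the median was -0.42, with 0 genes above 2 and 3 below 0.5. *Papss2*, which makes PAPS for the SULT enzymes, had 2737 and 6754 counts (1.57, and 0.95 with both trends removed). *Gss*, glutathione synthetase, had 8466 and 3334 counts (-1.08, and -1.31 with both trends removed), while *Slc35b2*, the PAPS carrier of the Golgi, had -0.74 and turned to 0.03. Among microsomal and other glutathione enzymes, 12 of 14 genes were measured, 9 of them below 0, 1 above 2 and 5 below 0.5 (41.7%), with a median of -0.46. After removal of both trends, 4 were below 0.5 and the median was -0.53. Both counts below 0.5 include *Ggt1* (11 and 0 counts), which passed the filter only through the AAV-GFP library. With 10 counts required in both libraries, 11 genes of this list had a median of -0.40 on scaled counts. *Mgst3*, a membrane-bound glutathione transferase, had 3158 and 637 counts (-2.04, and -1.78 with both trends removed), and *Ggt5*, which cleaves glutathione conjugates, had 289 and 97 (-1.30, and -1.24). *Gstcd* had 131 and 196 counts (0.83, and 0.25). *Mgst1*, the most abundant gene of the list, had 153814 and 124336 counts (-0.04, and -0.55 with both trends removed). The list summed to 5560 TPM with AAV-GFP and 5197 TPM with AAV-*Wee1-AS*.

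In the other conjugating and phase II enzymes, 19 genes were measured, of which 3 were above 2 (15.8%) and 1 below 0.5 (5.26%), and the median was 0.12. With both trends removed, 1 was above 2 and 1 below 0.5, and the median turned to -0.09. The gene below 0.5 in that setting was *Nat1*, with 41 and 35 counts (0.03 on scaled counts and -1.11 with both trends removed). On scaled counts the highest were the acetyltransferase *Nat2* (211 and 586 counts, 1.73) and the thiopurine methyltransferase *Tpmt* (981 and 2247, 1.46), followed by the nicotinamide methyltransferase *Nnmt* (3975 and 7208, 1.12). The gene below 0.5 on scaled counts was *Ephx1* (63030 and 25420 counts, -1.05, and -0.52 with both trends removed). Once both trends were removed, *Nat2* and *Tpmt* had 0.58 and 0.52, and *Nnmt* was the highest of the list at 1.41.

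Of the 12 measured genes of conjugate export and removal, 3 were above 2 (25.0%) and 1 below 0.5 (8.33%), and the median was 0.14. After removal of both trends, 2 of the 12 were above 2, against 7.37% of all genes, and 0 were below 0.5, and the median turned to -0.22. The uptake transporters of organic anions *Slco1a1* (668 and 7028 counts, 3.65) and *Slco1b2* (8226 and 38461, 2.49), which do not export conjugates, had the highest ratios, and 2.27 and 1.20 with both trends removed. The only exporter above 2 was *Abcg2*, with 3233 and 5653 counts (1.07, turning to -0.54 with both trends removed). *Arsa*, a lysosomal sulfatase, had 8245 and 3133 counts (-1.13, and -0.55 with both trends removed).

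Of the 21 receptors and regulators, 3 were above 2 (14.3%, a share under that of all genes) and 0 below 0.5, and the median was -0.06. The 3 were the glucocorticoid receptor *Nr3c1* (671 and 3025 counts, 2.43), the estrogen receptor *Esr1* (194 and 645, 1.98) and *Arnt*, the partner of AHR (879 and 1721, 1.23). With both trends removed, they had 0.92, 0.93 and 0.83 and none was above 2, while *Ppara* was just above 2 at a log2 ratio of 1.00 and the median turned to 0.10. The genes of the regulators named in the background had log2 ratios of 0.09 (*Nfe2l2*, NRF2), 0.87 (*Ahr*), 0.35 (*Nr1i3*, CAR), 0.13 (*Nr1i2*, PXR) and 0.81 (*Ppara*, PPARα) on scaled counts. Once both trends were removed, *Nfe2l2* turned to -0.25, and *Ahr*, *Nr1i3* and *Nr1i2* had 0.05, 0.78 and 0.60.

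Several marker lists also differed between the libraries, and their part in the values above was not tested. All 9 measured hepatocyte markers were abundant (77198 and 87611 TPM in sum), with a median log2 ratio of 0.49, and 0.22 with both trends removed. Of these markers 5 lay above 0 and 4 below, from *Ttr* at -0.62 to *Apob* at 1.82. The summed TPM was 54.5 and 47.6 for cholangiocyte markers (8 of 10 measured), 509 and 409 for Kupffer cell and macrophage markers (10 of 10), 423 and 294 for stellate cell markers (10 of 10) and 243 and 209 for sinusoidal endothelium (10 of 10). The medians of these 4 lists were -0.20, -0.03, -0.73 and -0.15, and 0.18, -0.06, -0.65 and -0.26 with both trends removed. Genes within a list lay far apart. In the Kupffer cell and macrophage list, 3 of 10 genes were above 2 (against 22.2% of all genes) and 1 of 10 below 0.5 (against 8.71%), with *Marco* at 1.60 and *Vsig4* at 1.52 but *Trem2* at -2.08, and in the stellate cell list 1 gene, *Lrat* at 1.46, was above 2 and 4 of 10 were below 0.5, with *Col1a1* at -2.32 and *Col3a1* at -2.03. Once both trends were removed, 1 gene was above 2 and 1 below 0.5 in the first of these lists, and 0 above 2 and 4 below 0.5 in the second, against 7.37% and 8.56% of all genes. Of the intestinal markers, *Cdx2*, *Cdh17*, *Muc2* and *Sis* were at 0 in both libraries, and *Vil1* (3 and 5 counts) and *Krt20* (4 and 0) were near it. The other intestinal markers were *Fabp2*, with 5088 and 4717 counts (0.15, and -0.77 with both trends removed), and *Lgals4*, with 126 and 318 (1.58, and 2.14). All kidney markers but *Lrp2* (40 and 21 counts) were at 0. The median was 0.42 over 12 pericentral and -0.06 over 12 periportal hepatocyte genes, an order that turned with both trends removed (0.25 and 0.32). Among 14 female-biased liver genes outside the families, 11 were measured, 3 of them above 0 and 8 below, with 2 above 2 (18.2%, against 22.2% of all genes) and 5 below 0.5 (45.5%, against 8.71%) and a median of -0.86. Of the 5, *Cyp3a44* (330 and 0 counts), *Cyp3a41b* (16 and 0) and *A1bg* (12 and 4) passed the filter only through the AAV-GFP library. They were higher there, so no conclusion is drawn from this share. With both trends removed, 1 was above 2 and 4 below 0.5, against 7.37% and 8.56% of all genes, and the median was -0.95. These 4 were *Cyp3a44*, *Cyp3a41b*, *Cyp2b13* and *Hao2* (213 and 175 counts, -0.02 on scaled counts and -1.02 with both trends removed). The genes below 0.5 on scaled counts with 10 counts in both libraries were *Cyp2b13* (4219 and 526 counts) and *Cyp2a4* (2757 and 1034). With both trends removed they had -2.76 and -0.95, so that *Cyp2a4* was no longer below 0.5. In the other direction lay *Fmo2* (log2 ratio 1.38, and 0.40 with both trends removed), *Trim24* (1.29, and 1.09) and *Acot3* (0.98, and 0.88). Of these, *Trim24* was the gene above 2 with both trends removed. Among 12 male-biased genes, 7 were above 0 and 5 below, with 5 above 2 (41.7%, against 22.2% of all genes) and 0 below 0.5 (against 8.71%) and a median of 0.19. With both trends removed, 3 were above 2 and 1, *Mup20*, was below 0.5, against 7.37% and 8.56%, and the median was 0.24. The named genes were *Hsd3b5* (228 and 2638 counts), *Mup7* (33214 and 235453) and *Susd4* (799 and 1648). The female-specific RNA *Xist* was at 0 in both libraries, and the 4 genes of the Y chromosome were detected in both, with log2 ratios from 1.76 to 2.84 (median 2.49, and 1.09 with the GC and length trends removed). The sex of the mice was not given in the sources used here.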

How the data were processed

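Poly-A RNA of mouse liver was sequenced, with 1 library per group (AAV-GFP and AAV-*Wee1-AS*, as the labels give them). The submitters' processing notes name Trimmomatic 0.38, HISAT2 2.1.0, SAMtools 1.9, StringTie 2.1.3b and the build mm10, without the role of each. The authors deposited an estimated count, an FPKM value and a TPM value per RefSeq transcript and library. The deposited counts lay within 1 of FPKM times length over a constant for 98.2% and 98.5% of transcripts above 0, so they are not independent of the length model. The gene coordinates are those of the deposited table. The authors' comparisons were not used, and no reads were aligned again.

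Counts were summed per symbol and scaled by TMM over all genes (edgeR 4.0.16 in R 4.3.3, factors 1.02 and 0.980). The log2 ratio used a prior count of 2. A gene was kept if either library held 10 or more of its counts, and 3 counts served as the floor where a library held none. Intervals are exact Clopper-Pearson 95% intervals of the count ratio. Trends with GC content and length of the longest GENCODE M21 transcript were removed by lowess (span 0.3, 5 cycles, statsmodels 0.14.6). Steps ran in Python 3.11.15 with numpy 2.4.6, pandas 2.3.3, scipy 1.17.1, matplotlib 3.10.9 and Biopython 1.88, and were tested on simulated data. Identity between copies was taken from aligned coding sequences, in place of the planned protein identity, for which no table was used here. Copies with at least 90% identity were also summed. Promoters came from RefSeq.

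The members, lists and steps were chosen with earlier results of these data known. Named members were, per family, the 5 highest and 5 lowest ratios among genes reaching 100 counts in a library and the 4 most abundant by TPM. Per list, up to 3 genes with the largest ratios in either direction were named, with the same limit of 100 counts. Other members are named to account for all 65. Named outside this rule were the intestinal and kidney markers, *Lrat*, *Abcg2*, *Ttr*, *Mup20*, *Xist* and the regulators of the background. So were *Mgst1*, *Ggt1*, *Ephx1*, *Nat1*, *A1bg*, *Cyp2a4*, *Cyp3a41b*, *Trim24*, *Acot3* and *Hao2*. For scaling, the alternatives were DESeq2 1.42.0 size factors, library totals, totals that leave out the 20 most abundant genes, and the upper quartile. Others set the count filter to none, to 10 counts in each library or to 50 in either, the prior count to 0.5, or the values to deposited TPM or FPKM plus a pseudocount of 1. The last ones took the most abundant transcript per gene, or removed the GC trend with or without that of length.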

Additional observations from a re-analysis of the deposited data

How the results depend on the processing

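The count of members below 0.5 stayed between 8 and 11 over the 13 alternatives that covered all members, beside 10 in the reported setting. The count above 2, reported as 8, was 5 with FPKM, 5 with TPM, 2 with the GC trend removed and 2 with the GC and length trends removed. With FPKM and TPM, the genes no longer above 2 were *Gsto2*, *Sult1e1* and *Sult2a7*, all of low level. The cause of the other differences was not tested. The UGT median, reported as 0.41, was -0.69 with the GC trend removed and -0.46 with both trends removed. With the GC trend removed, the SULT median was 0.052, the median of cofactor supply was -0.58, and *Sult1b1* and *Sult2a7* turned to -0.22 and -0.17. The GST median stayed below 0 in every alternative, from -0.79 with the upper quartile to -0.30 with both trends removed. The upper quartile moved the median of all genes from -0.02 to -0.22, and of 30 named members 28 kept their sign under it, against 18 with the GC trend removed and 19 with both trends removed. Under the 2 trend removals, 7 and 6 of the 10 members below 0.5 were still below it. *Gstz1* and *Sult5a1*, which lay near 0, had -0.17 and -0.02 with the upper quartile. Over all genes, the count above 2, reported as 3527, ran from 1029 (FPKM) to 4768 (no count filter), and the count below 0.5, reported as 1381, from 307 (FPKM) to 2232 (upper quartile). Of the values of single genes, summed copies and all genes, 260 moved by less than their counting interval (counts by less than 1.5 times), 164 by more, and 2 changed sign as calls. The count-filter alternatives cannot move the log2 ratio of a single gene, so their part of the 260 says nothing about stability. No paired analysis was possible because each group has 1 library. The intervals cover counting error only, and for *Gsto2*, *Sult1e1* and *Ugt1a10*, with under 100 counts, they spanned more than 1 log2 unit.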
